A study of Homo sapiens with 6 samples.

Results

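The mucins of HUCCT1, an established human cholangiocarcinoma (bile duct cancer) cell line, were followed in RNA sequencing after treatment with a small interfering RNA (siRNA) directed at C1QBP (siC1QBP, 3 libraries) or with the control siRNA (siNC, 3 libraries). The labels call the siNC cells wt and give no other agent, dose or time, and the same line carried both treatments. The data were raw counts per gene. Whether the libraries of a group were grown separately is not labelled, so each p-value reflects only the spread among these libraries, which may be technical. The 10 genes described here, of 58735 in the table, were taken by name: the gel-forming mucins MUC5AC, MUC5B and MUC6 and the membrane mucins MUC1, MUC3A, MUC4, MUC12, MUC13, MUC16 and MUC20. They were chosen with the comparison of siC1QBP with siNC in view, in which MUC6 and MUC1 were higher, so their differences are given as a description, without p-values, and a member called higher by the fit over all genes is not independent evidence of a change. Of the 10 genes, 8 passed the filter on low counts, and MUC3A and MUC12 did not.

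Mucins are very large glycoproteins whose central domains are built of repeated stretches rich in threonine, serine and proline, the residues that carry or space dense O-linked sugar chains. Gel-forming mucins are secreted and link end to end through cysteine-rich ends into the mucus that lines ducts, stomach and airway, while membrane mucins stay anchored in the apical surface and can signal or be shed. MUC5AC is the main mucin of the gastric surface, MUC6 of gastric glands and deeper biliary glands, and several of these genes are known to be expressed in cholangiocarcinoma.

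Repeats occur in most of the members but not in MUC13, whose best match reached 56.25% identity. Repeats and copies in other genes can make a short read match several places. Stretches of the best-matching repeat region are therefore shown for 4 members. They are the hg38 reference through GENCODE release 29 transcripts, read 5′ to 3′ on the coding strand, with codons for threonine, serine or proline in capitals; the repeats of HUCCT1 itself were not analysed here. MUC6 is shown from chr11:1017365-1017484 (minus strand), MUC5B from chr11:1249733-1249852 (plus strand), MUC1 from chr1:155189452-155189511 (minus strand) and MUC4 from chr3:195783297-195783344 (minus strand), all within coding exons.
MUC6: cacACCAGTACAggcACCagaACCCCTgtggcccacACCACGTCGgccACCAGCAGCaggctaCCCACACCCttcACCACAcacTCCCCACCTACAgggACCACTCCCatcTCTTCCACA
MUC5B: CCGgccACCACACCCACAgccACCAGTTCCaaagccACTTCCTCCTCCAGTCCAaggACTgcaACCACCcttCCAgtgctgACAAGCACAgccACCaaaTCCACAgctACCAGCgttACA
MUC1: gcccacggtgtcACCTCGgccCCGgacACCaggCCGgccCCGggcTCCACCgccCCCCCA
MUC4: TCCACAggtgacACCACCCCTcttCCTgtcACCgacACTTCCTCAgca
In the MUC1 stretch, 10 of 20 codons were for these 3 residues, and the 60-base unit stood 19 times in the transcript without a change. The MUC4 unit of 48 bases held 10 such codons of 16, with 7 identical copies. In MUC6 the best-matching window of 240 bases was 96.2% identical to the sequence 507 bases further on, and 120 bases are shown from its start. Whole units of 507 bases were not compared, and only 1.76% of its 50-base stretches stood more than once in the transcript. No period in MUC5B reached the minimum of 93% identity; its best match was at 597 bases with 86.2% identity, near the longest period searched, so its 120 bases show a similar stretch and not a defined unit. The stretches of MUC6 and MUC5B each held 27 such codons of 40.

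Over the whole coding sequence, threonine, serine and proline codons made up 30.7% (MUC13) to 58.0% (MUC3A) of the codons in the 10 members, against a median of 18.7% over 19135 coding genes. MUC3A ranked 1 of those genes by this share, MUC12 ranked 3, MUC4 ranked 9 and MUC5AC ranked 12. MUC13, a short membrane mucin with EGF-like domains, ranked 419 and was the least typical. Cysteine codons separated the classes: they made up 4.51% to 5.20% in the 3 gel-forming mucins and 0.238% to 0.850% in the membrane mucins other than MUC13, which had 3.91%. The median of all coding genes was 2.05%.

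A 50-base word of a transcript was taken to stand for a read, and its uniqueness differed widely among the members. The 50 bases were a chosen setting, not the read length of these libraries, and longer reads would match 1 place only more often. All words of MUC13, 98.9% of those of MUC16, 98.2% of those of MUC6 and 98.1% of those of MUC3A occurred at 1 place only in the GENCODE transcripts. For MUC5AC, MUC4 and MUC5B the share was 78.2%, 71.7% and 70.4%, for MUC1 it was 57.6% and for MUC12 38.5%, the rest being almost entirely repeats within the same gene. MUC5AC and MUC5B shared 66 words with each other. MUC20 was different: 70.3% of its words also occurred in other genes, 817 in the pseudogene MUC20P1 and 758 in MUC20-OT1, a long non-coding RNA that overlaps it on the same strand. Counts of MUC20 are therefore uncertain, since the sources used here do not say how reads matching several places were counted.

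**Figure D1:**
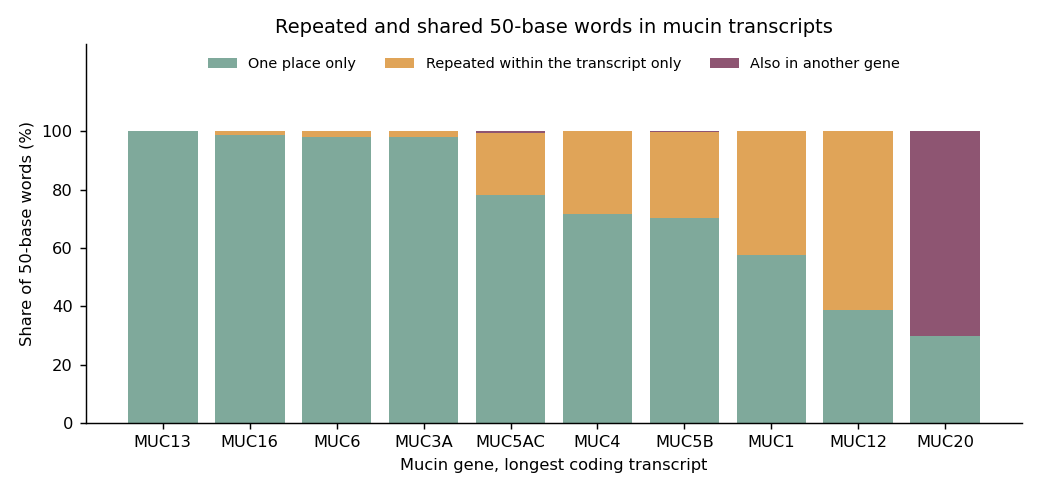
Share (%) of the 50-base words of each mucin's longest coding transcript that occur at 1 place only, that are repeated within the transcript only, or that also occur in another gene. MUC13 had only single-place words, while 70.3% of MUC20's words also stood in another gene.

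Library totals were 17122252 to 18847340 counts in siC1QBP and 18313264 to 20416243 counts in siNC, and 25001 to 25506 genes against 23395 to 23841 genes had at least 1 count. The library siC1QBP replicate 1 stood apart. Its chi-square per degree of freedom against the other siC1QBP libraries was 6.66 and 6.77, against 2.09 to 3.67 for the other pairs within a group. It also had the highest mitochondrial share of counts, 4.80% against 4.28% and 4.20% in the other siC1QBP libraries. All siNC libraries were lower, at 3.66% to 3.88%. Without siC1QBP replicate 1, the log2 fold changes were 1.249 for MUC6, 0.70 for MUC4, 0.69 for MUC5B, 0.62 for MUC1, 0.37 for MUC16 and -0.0065 for MUC5AC. C1QBP, the gene targeted by the siRNA and a protein mainly of mitochondria, had 59.1, 57.6 and 60.0 CPM (counts scaled to a common library size with TMM factors) in the siC1QBP libraries and 175, 181 and 185 CPM in the siNC libraries, a log2 fold change of -1.61 (SE 0.05; edgeR adjusted p = 1.39e-12). All 7 bile duct epithelial markers passed the filter, with summed levels of 6166 to 6367 CPM in siC1QBP and 6877 to 7191 CPM in siNC; KRT7 and KRT19 were lower (log2 fold change -0.26 and -0.19; edgeR adjusted p = 0.000214 and 0.00862) and 5 were not called. Of 6 hepatocyte markers only SERPINA1 passed, with 490.1 CPM in the siC1QBP group against 436 CPM in siNC, and was called higher (log2 fold change 0.17; edgeR adjusted p = 0.0296), while ALB, APOA1, APOB, TTR and CYP3A4 were at or near 0. Gastric markers summed to 2.63 to 3.61 CPM and 2.09 to 3.03 CPM with LIPF at 0, no intestinal marker passed the filter, and stromal, endothelial and blood markers summed to 4.20 to 5.19 CPM and 4.56 to 4.96 CPM. The part of these shifts in the mucin values was not tested, and in RNA from whole cultures fewer cells making a transcript and less of it per cell cannot be told apart.

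In the deposited table MUC6 stood 2.33-fold higher in siC1QBP than in siNC, MUC4, MUC1 and MUC5B between 1.53-fold and 1.64-fold higher and MUC16 1.34-fold higher. MUC5AC, the most abundant, was nearly level. For the fainter MUC13 and MUC20, log2 fold changes of 0.14 (SE 0.28) and 0.10 (SE 0.20) were too imprecise to show whether they were level. By the edgeR fit over 15530 genes, 5 of the 8 tested members were called higher, 0 lower and 3 were not called; 6.47% of all tested genes were called higher and 7.84% lower. Over all genes that is 1005 higher and 1217 lower, a split that turned to 1253 and 908 when libraries were scaled by their totals alone, under which the same 5 members were called. In the same 5 members every siC1QBP library lay above every siNC library, which held for 16.0% of tested genes. The median log2 fold change was 0.52 over the 8 members and 0.00255 over all tested genes. Nothing is read from these counts, since the members were chosen on this contrast.

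**Figure D2:**
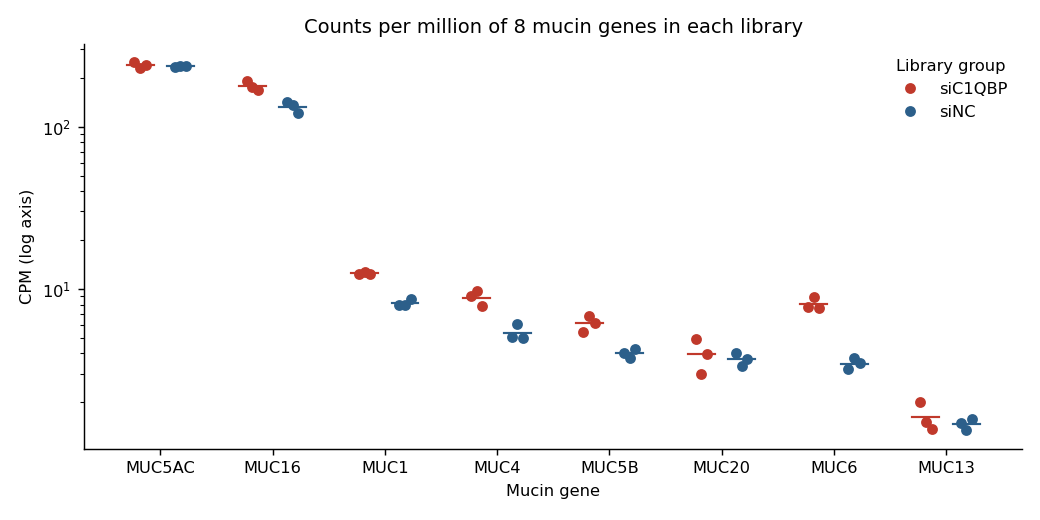
CPM (log axis) of the 8 tested mucins in each of the 3 siC1QBP and 3 siNC libraries, with horizontal lines at the group means. The groups stand apart for MUC16, MUC1, MUC4, MUC5B and MUC6 and overlap for MUC5AC, MUC20 and MUC13.

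Among the gel-forming mucins, MUC6 (ENSG00000184956; hg38 chr11:1012821-1036706, minus strand) had 7.78, 8.94 and 7.61 CPM in the siC1QBP libraries and 3.18, 3.72 and 3.49 CPM in the siNC libraries. The lowest siC1QBP library was thus well above the highest siNC library. The counts behind these values were 140, 155 and 145 in siC1QBP and 58, 75 and 64 in siNC. Means were 8.11 ± 0.724 and 3.46 ± 0.270 CPM (SD, n = 3 each), and the log2 fold change was 1.22 (SE 0.15), the largest among the tested members. MUC6 is also one of the members whose words were nearly all single-place.

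MUC5AC (ENSG00000215182; chr11:1157953-1201138, plus strand) had 249, 231 and 239 CPM in siC1QBP and 234, 236 and 238 CPM in siNC. The siC1QBP libraries lay on both sides of the narrow siNC range. Its means were 239.8 ± 9.05 and 236 ± 2.06 CPM (SD, n = 3 each), and the 95% interval of its log2 fold change of 0.02 (SE 0.04) ran from -0.06 to 0.11. MUC5B (ENSG00000117983; chr11:1223066-1262172, plus strand), a mucin prominent in airway and gallbladder, had 5.45, 6.81 and 6.14 CPM in siC1QBP and 4.01, 3.77 and 4.25 CPM in siNC. These groups did not overlap, and the log2 fold change was 0.61 (SE 0.16). The MUC5B call was lost without siC1QBP replicate 2 (log2 fold change 0.53) or siNC replicate 2 (0.57).

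The 3 gel-forming members lie in the same cluster on chromosome 11. Their log2 fold changes were 1.22, 0.02 and 0.61 in the order MUC6, MUC5AC and MUC5B. MUC6 and MUC5AC are 121246 bases apart, with the gel-forming mucin gene MUC2, not a member, between them. MUC5AC and MUC5B are 21927 bases apart. Levels per length were taken as TPM (counts divided by gene length and scaled to a common sum). MUC6 made up 6.41% ± 0.708 of the summed transcripts of these 3 members in siC1QBP and 2.90% ± 0.210 in siNC (SD, n = 3 each). MUC5AC made up 91.4% ± 0.985 and 95.6% ± 0.167, and MUC5B the small rest. The 3 members together summed to 55.1 ± 1.65 TPM in siC1QBP and 50.9 ± 0.341 TPM in siNC.

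Of the membrane mucins, MUC1 (ENSG00000185499; chr1:155185824-155192916, minus strand), whose cytoplasmic tail signals and whose shed part is a serum marker, had 12.3, 12.7 and 12.3 CPM in siC1QBP and 7.90, 7.94 and 8.61 CPM in siNC. The siC1QBP libraries were tightly grouped above all siNC libraries. Means were 12.4 ± 0.223 and 8.15 ± 0.395 CPM (SD, n = 3 each), with a log2 fold change of 0.61 (SE 0.11). MUC4 (ENSG00000145113; chr3:195746765-195812277, minus strand), a partner of the receptor ERBB2, had 9.004, 9.64 and 7.88 CPM in siC1QBP and 5.05, 6.05 and 4.96 CPM in siNC. It spread more within each group than MUC1, without overlap between them, and its log2 fold change was 0.72 (SE 0.14). MUC16 (ENSG00000181143; chr19:8848844-8981342, minus strand), the carrier of a widely used ovarian tumour marker, had 190.4, 177 and 167 CPM in siC1QBP and 141, 135 and 122 CPM in siNC. The highest siNC library stood well below the lowest siC1QBP library, with a log2 fold change of 0.42 (SE 0.06).

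MUC13 (ENSG00000173702; chr3:124905442-124953819, minus strand) had 2.0, 1.5 and 1.4 CPM in siC1QBP and 1.5, 1.3 and 1.6 CPM in siNC. MUC20 (ENSG00000176945; chr3:195720882-195741123, plus strand), reported to bind the receptor MET, had 4.89, 3.00 and 3.94 CPM in siC1QBP and 4.01, 3.32 and 3.70 CPM in siNC. Both overlapped between groups, and their log2 fold changes of 0.14 (SE 0.28) and 0.10 (SE 0.20) turned to -0.04 and -0.08 without siC1QBP replicate 1. MUC3A (ENSG00000169894; chr7:100949555-100968346, plus strand) and MUC12 (ENSG00000205277; chr7:100969623-101018949, plus strand), both best known from intestine, lie 1276 bases apart and were barely detected. MUC3A had 3, 5 and 6 counts in siC1QBP and 14, 5 and 5 counts in siNC, so that 1 siNC library stood apart. MUC12 had 4, 1 and 0 counts in siC1QBP and 0, 3 and 1 counts in siNC. At this depth 3 counts, the most that a count of 0 allows, were worth 0.159 to 0.175 CPM in siC1QBP and 0.147 to 0.164 CPM in siNC, counting error only.

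Per length, the order of the members in siNC cells was MUC5AC (48.6 ± 0.367 TPM), MUC16 (10.9 ± 0.880), MUC1 (6.21 ± 0.283), MUC20 (3.12 ± 0.322), MUC13 (1.51 ± 0.129), MUC6 (1.48 ± 0.0998), MUC4 (0.902 ± 0.0965), MUC5B (0.775 ± 0.0482), MUC3A (0.137 ± 0.0949) and MUC12 (0.0141 ± 0.0157; mean ± SD in TPM, n = 3). Against protein-coding genes, MUC5AC stood at percentile 82.7, MUC16 at 57.6 and MUC1 at 51.4. Neighbours in the order were taken as apart where their mean ± SD ranges did not overlap, which left MUC13 and MUC6, and MUC4 and MUC5B, not apart. In siC1QBP cells the top 3 were the same, at 50.3 ± 2.01, 14.9 ± 0.951 and 9.66 ± 0.139 TPM. MUC6 moved to rank 4 with 3.52 ± 0.2999 TPM, not apart from MUC20 with 3.40 ± 0.822 TPM, and MUC13 (1.70 ± 0.350 TPM) and MUC4 (1.52 ± 0.147 TPM) were not apart. The membrane mucins summed to 31.3 ± 1.88 TPM in siC1QBP and 22.8 ± 0.979 TPM in siNC, of which MUC16 made up 47.6% and 47.8%. For a level per single-place length, each TPM was divided by the single-place share of words in the longest coding transcript. That correction would hold only if reads matching several places went uncounted, which is not known. It also takes the share of that transcript for the whole gene, and for MUC20 their lengths were 2463 and 4249 bases. With it, 4 in place of 7 of the 9 neighbouring pairs in siNC were apart. Under that assumption MUC16, MUC1 and MUC20, whose single-place shares were 98.9%, 57.6% and 29.7%, were no longer apart.

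**Figure D3:**
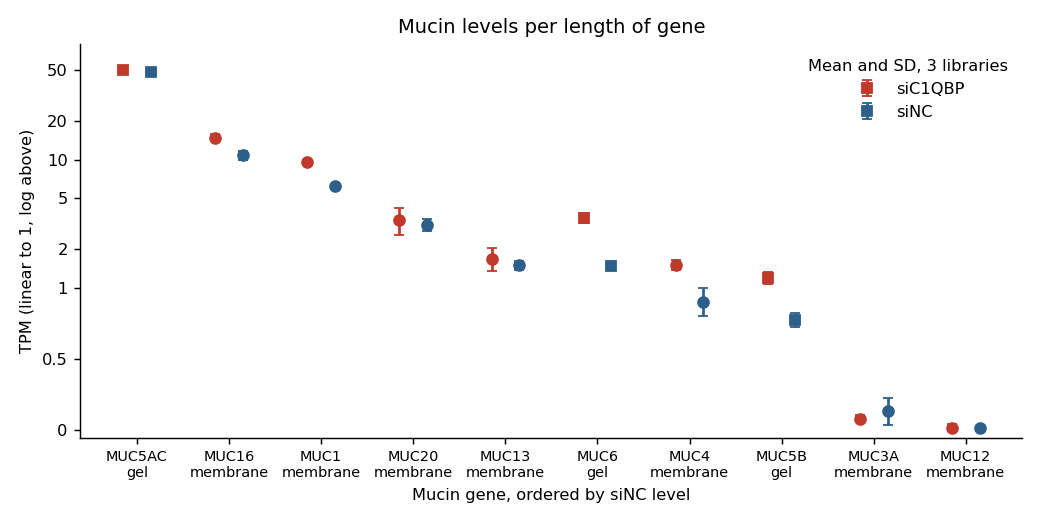
Mean level in TPM (linear up to 1 and logarithmic above) with SD of the 10 mucins in the 3 siC1QBP and 3 siNC libraries, ordered by the siNC level. MUC5AC leads in both groups at 50.3 and 48.6 TPM, and MUC6 stands at 3.52 TPM in siC1QBP and 1.48 TPM in siNC.

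Most of these genes are long, so the calls in long genes are given beside theirs. Of the 3106 longest tested genes, with 7823 bases or more, 12.7% were called higher and 3.19% lower, with a median log2 fold change of 0.06. MUC5AC, MUC5B, MUC6, MUC4 and MUC16 are among them. With each library's trend on gene length removed, the same 5 members were called, and the log2 fold change was 1.18 for MUC6, 0.62 for MUC1, 0.61 for MUC4 and 0.52 for MUC5B. MUC16 then stood at 0.26 (SE 0.05) and MUC5AC at -0.07 (SE 0.04).

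Positions gave a second view, since the members sit in clusters. Of 66 tested genes within 200 kb of a member, 4 were called higher and 6 lower, with a median log2 fold change of 0.0105. Over all tested genes, 6.47% were called higher and 7.84% lower, and nothing about the neighbours as a set is read from their counts. The number of calls ran from 4 to 12 when single libraries were left out, the lowest without siNC replicate 2 or siNC replicate 3. Around MUC6, MUC5AC and MUC5B, 12 neighbours were tested, 0 were higher and 3 were lower: the Toll-interacting protein TOLLIP (log2 fold change -0.18, SE 0.06) and the tetraspanins CD151 (-0.15, SE 0.05) and TSPAN4 (-0.25, SE 0.07), with edgeR adjusted p = 0.0380, 0.0425 and 0.0205. The calls of all 3 were lost without siNC replicate 2 or 3, and those of TOLLIP and CD151 also without siC1QBP replicate 1 or 2 and when libraries were scaled by their totals alone. CD151 lost its call with the stricter filter and with the length trend removed as well. Next to MUC1, THBS3, a thrombospondin gene that lies 2672 bases away on the same strand, had 11.003 ± 0.965 CPM in siC1QBP and 6.86 ± 1.2045 CPM in siNC (SD, n = 3 each; log2 fold change 0.67, SE 0.14; edgeR adjusted p = 0.00332). RUSC1 and ZBTB7B, further off, were lower by the edgeR test (log2 fold change -0.24 and -0.18; adjusted p = 0.00937 and 0.0419). RUSC1 lost its call without siNC replicate 2 or 3, and ZBTB7B with DESeq2 and without any 1 of the 6 libraries. The other 22 of the 25 tested neighbours of MUC1 were not called.

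Beside MUC4 and MUC20, which lie 5641 bases apart on opposite strands, MUC20-OT1 had 39.3 ± 2.01 CPM in siC1QBP and 29.9 ± 2.90 CPM in siNC (SD, n = 3 each; log2 fold change 0.39, SE 0.08; edgeR adjusted p = 0.00267). Its span overlaps MUC20 on the same strand, and reads from the overlap cannot be told apart. The pseudogene MUC20P1 had 1.08 ± 0.361 and 1.68 ± 0.306 CPM and was not called (log2 fold change -0.63, SE 0.32). Near MUC3A and MUC12 the clathrin adaptor subunit AP1S1 was lower (log2 fold change -0.23; edgeR adjusted p = 0.00714). Near MUC16 the zinc-finger gene ZNF317 was higher (0.26; edgeR adjusted p = 0.0169). Without siNC replicate 3 the AP1S1 call was lost, and without siNC replicate 1 or 2 that of ZNF317. None of 5 tested neighbours of MUC13 was called.

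**Figure D4:**
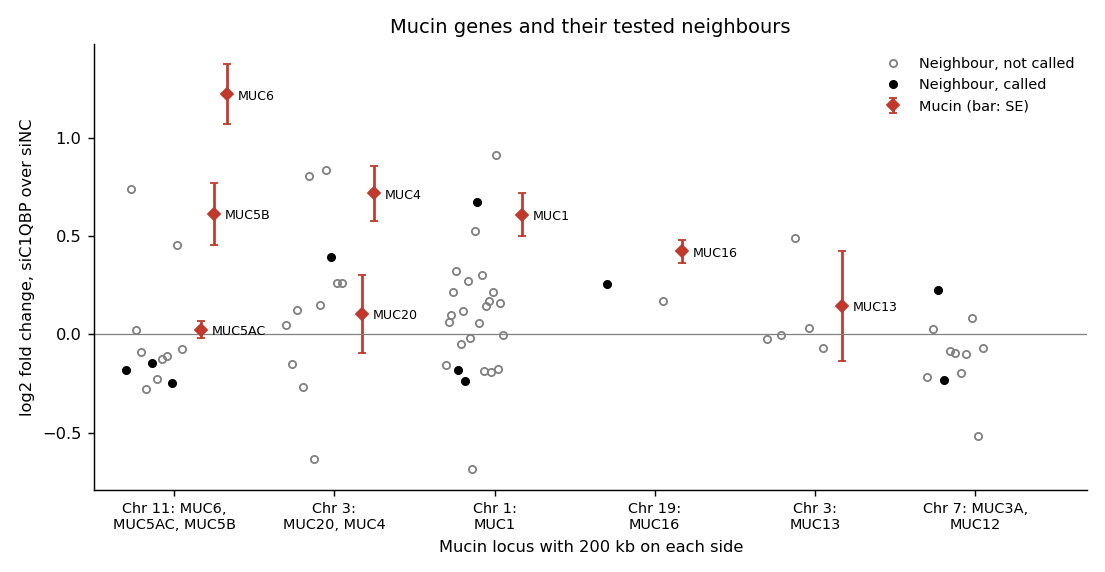
Log2 fold change (siC1QBP over siNC) of the tested mucins (diamonds, bars SE) and of the tested genes within 200 kb at each locus, filled where called by edgeR at an adjusted p under 0.05. At the chromosome 11 cluster MUC6 stands at 1.22 and MUC5AC at 0.02, and the 3 called neighbours are all lower.

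RefSeq promoters (GRCh38.p14) matched 6 of the 10 members by symbol: MUC1, MUC3A, MUC4, MUC12, MUC13 and MUC16, but not MUC5AC, MUC5B, MUC6 or MUC20. The 250 bases before the annotated start are shown for MUC1, whose RefSeq start lies at the start of the counted gene. They are chr1:155192916-155193165 on the minus strand, with motif matches on either strand in capitals.
MUC1: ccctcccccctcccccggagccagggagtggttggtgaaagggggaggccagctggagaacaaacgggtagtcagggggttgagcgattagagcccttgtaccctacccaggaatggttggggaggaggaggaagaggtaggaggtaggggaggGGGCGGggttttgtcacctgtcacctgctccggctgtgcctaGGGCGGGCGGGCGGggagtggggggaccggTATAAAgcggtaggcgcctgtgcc
MUC1 held 4 matches to the GC box GGGCGG, some of them overlapping, and 1 TATA box match (TATAAA). The RefSeq start of MUC4 lies inside the counted gene, and the window before it (chr3:195811930-195812179) held 1 GC box, on the opposite strand, and 1 match to the STAT motif TTCNNNGAA. MUC16 has 2 RefSeq starts, both upstream of the counted gene. The window at chr19:9065752-9066001 held 1 GC box, on the opposite strand. The window at chr19:9010410-9010659 held TGAATCA, 1 match to TGANTCA, the letters searched for AP-1, in which N is any base. Of 35116 promoters searched the same way, 42.6% held GGGCGG, 10.7% TATAAA and 6.57% TTCNNNGAA. MUC13 also held 1 AP-1 match (TGAGTCA), in a window that lies inside the counted gene. MUC3A held 1 GC box, and MUC12 1 TATA box match, on the opposite strand. The AP-1 letters stood in 6.57% of all promoters, and no window of the 6 genes held the E-box CACGTG (6.35%) or the EGR letters GCGNGGGCG (8.42%). A match is a description of these letters, not a binding site.

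Genes that build, release, shed or regulate mucins were drawn from 7 lists of textbook roles. Of their 154 entries, 151 were found and 115 tested. Of these, 13 were called higher and 7 lower, beside 6.47% higher and 7.84% lower over all tested genes. The median log2 fold change was 0.00902, against 0.00255 over all tested genes. The lists were not tested as sets. Without single libraries the higher calls ran from 9 to 13 and the lower calls from 4 (without siNC replicate 2 or 3) to 15 (without siC1QBP replicate 1), and with the length trend removed 13 were lower.

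**Figure D5:**
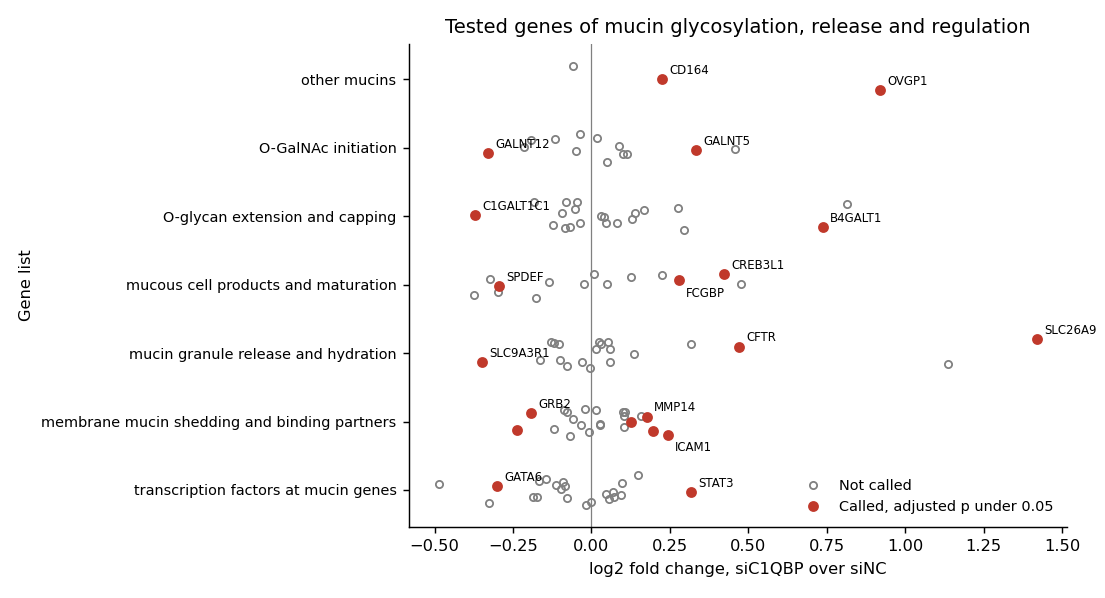
Log2 fold change (siC1QBP over siNC) of the 115 tested genes in 7 lists of mucin-related roles, filled where called by edgeR at an adjusted p under 0.05 and labelled where the text names the gene. Most points lie near 0, with SLC26A9 at 1.42, OVGP1 at 0.92 and B4GALT1 at 0.74 as the largest called values.

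Among other mucins and mucin-like proteins, 3 of 13 found were tested and 2 rose. OVGP1, an oviduct glycoprotein also classed as a mucin, had 3.41 ± 0.253 CPM in siC1QBP and 1.79 ± 0.0787 CPM in siNC (log2 fold change 0.92, SE 0.21; edgeR adjusted p = 0.00777). The sialomucin CD164 had 154 ± 4.50 and 132 ± 6.26 CPM (0.23, SE 0.05; edgeR adjusted p = 0.00477), and its call was lost without siNC replicate 3. The intestinal gel-forming mucin MUC2 was not tested and averaged 0.494 CPM in siC1QBP libraries, against 0.387 CPM in siNC libraries; MUC7, MUC15, MUCL1 and EMCN had no count in any of the 6 libraries.

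The first sugar of mucin O-glycans is added by the GALNT enzymes, of which 13 were tested, 1 rose and 1 fell. GALNT5 had 171 ± 5.92 CPM in siC1QBP and 136 ± 8.90 CPM in siNC (log2 fold change 0.33, SE 0.05; edgeR adjusted p = 0.00051), and GALNT12 had 27.2 ± 2.85 and 34.2 ± 3.08 CPM (-0.33, SE 0.09; edgeR adjusted p = 0.0176), a call lost without siNC replicate 2 or 3. Extension and capping enzymes gave 1 higher and 1 lower call among 21 tested. B4GALT1, which adds galactose to N-acetylglucosamine, had 209, 181 and 185 CPM in siC1QBP and 117, 112 and 116 CPM in siNC. Its groups were far apart, at a log2 fold change of 0.74 (SE 0.05; edgeR adjusted p = 2.77e-07). C1GALT1C1, the chaperone that core 1 synthase needs to fold, had 23.6 ± 0.762 and 30.5 ± 1.199 CPM and fell by 0.37 (SE 0.07; edgeR adjusted p = 0.00256).

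Of 14 tested products and maturation genes of mucous cells, 2 rose and 1 fell. SPDEF, a transcription factor of goblet cell maturation, had 82.7 ± 1.79 CPM in siC1QBP and 101.3 ± 7.48 CPM in siNC (log2 fold change -0.29, SE 0.06; edgeR adjusted p = 0.0025). CREB3L1, a membrane-tethered transcription factor of secretory cells, had 20.9 ± 0.643 and 15.6 ± 0.676 CPM (0.42, SE 0.08; edgeR adjusted p = 0.003). The mucus protein FCGBP was called higher by 0.28 (SE 0.09; edgeR adjusted p = 0.0373), a call lost with DESeq2 and without any of 5 single libraries.

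Release and hydration of mucus need granule fusion and ion transport. Of 20 tested genes of these steps, 2 rose and 1 fell. SLC26A9, an epithelial chloride transporter, had 3.61, 3.81 and 3.41 CPM in siC1QBP and 1.32, 0.893 and 1.85 CPM in siNC, with no overlap (log2 fold change 1.42, SE 0.26; edgeR adjusted p = 0.00156). The chloride and bicarbonate channel CFTR had 29.6 ± 3.01 and 21.4 ± 1.57 CPM (0.47, SE 0.09; edgeR adjusted p = 0.00192). SLC9A3R1, the scaffold that holds CFTR at the apical membrane, had 105 ± 1.57 and 134 ± 4.87 CPM and fell by 0.35 (SE 0.05; edgeR adjusted p = 0.000151).

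Shedding enzymes and binding partners of membrane mucins gave 4 higher and 2 lower calls among 22 tested. ICAM1, an adhesion receptor that binds MUC1, had 148 ± 5.10 CPM in siC1QBP and 125 ± 6.23 CPM in siNC (log2 fold change 0.24, SE 0.05; edgeR adjusted p = 0.00334). MMP14, a membrane protease able to shed MUC1, rose by 0.18 (SE 0.04; edgeR adjusted p = 0.0109), and the adaptor GRB2, which binds the MUC1 tail, fell by 0.19 (SE 0.05; edgeR adjusted p = 0.00915). The last 2 calls were each lost without some single libraries, siNC replicate 2 among them for both. Of 22 transcription factors known at mucin genes, STAT3 rose, with 243 ± 5.21 and 195 ± 12.1 CPM (0.32, SE 0.05; edgeR adjusted p = 0.000417). GATA6, an endodermal factor, fell, with 48.6 ± 4.81 and 59.8 ± 1.16 CPM (-0.30, SE 0.07; edgeR adjusted p = 0.00692), and the other 20 were not called.

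For MUC6 and MUC1 the genes with the most similar profile were sought among 10528 protein-coding genes whose mean reached 5 CPM, by Pearson's r of log2 CPM over the 6 libraries. The values describe a pattern that includes the gap between the groups. As the highest of 10528, they are high by selection, and no p is given. Closest to MUC6 were NUDCD3 (r = 0.998), PPP1R10, a regulatory subunit of protein phosphatase 1 (0.994), and the immediate early transcription factor EGR1 (0.991). EGR1 had 60.4, 61.0 and 58.9 CPM in siC1QBP and 26.2, 27.0 and 26.0 CPM in siNC. Closest to MUC1 were the anion exchanger SLC4A3 (0.998), FCHSD1 (0.997) and NNMT, a nicotinamide-methylating enzyme (0.996), which had 46.0, 45.1 and 45.0 CPM in siC1QBP and 31.9, 31.5 and 33.8 CPM in siNC. FCHSD1 itself was not called (log2 fold change 0.18, edgeR adjusted p = 0.0643).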

How the data were processed

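Per the labels' protocols, total RNA was column-purified and sequenced from strand-marked libraries. The deposited values are raw counts for each gene, not normalized, on hg38 per the submitters' processing notes. Which aligner and counter the authors used, and whether counting used strand, is not given in the sources used here.

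Counts went through edgeR 4.0.16 (quasi-likelihood F test, R 4.3.3) after TMM scaling and filterByExpr, with a model of treatment alone. P-values were adjusted by Benjamini-Hochberg across 15530 genes, and an adjusted p under 0.05 was a call. CPM use TMM-scaled library sizes, TPM the deposited gene lengths, and 95% intervals a normal approximation. The procedure was tested on simulated counts with 200 changed genes. Sequence features came from the longest coding transcript in GENCODE release 29, with repeats sought at periods of 12 to 600 bases in the best-matching window of 240 bases (Python 3.11.15, pandas 2.3.3, numpy 2.4.6, matplotlib 3.10.9).

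The members and lists were chosen with earlier results of these data known. The genes named are C1QBP, the 10 members, up to 3 called genes per list with the smallest p plus 1 in the opposite direction, called neighbours within 200 kb, and the 3 genes most like MUC6 and MUC1; of the genes so chosen, 1 is not reported here. MUC20P1, MUC2, the mucins without a count and single markers were named after their values were seen. Over genes with at least 20 counts, chi-square divided by its degrees of freedom lay between 2.09 and 6.77 within groups (6 pairs of libraries, the 2 highest with siC1QBP replicate 1) and between 7.12 and 18.0 across groups (9 pairs), so no library appeared to be present more than once.

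Alternatives were DESeq2 1.42.0, limma-voom (limma 3.58.1), other scalings, looser and stricter filters, mitochondrially encoded genes left out, the length trend removed, each library left out, a replicate block and an adjusted p under 0.01. Levels per single-place length were added after seeing the data.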

Additional observations from a re-analysis of the deposited data

How the results depend on the processing

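MUC1, MUC4, MUC6 and MUC16 were called higher under all alternatives run at an adjusted p under 0.05, and MUC5B under all but the 2 that left out siC1QBP replicate 2 or siNC replicate 2. With an adjusted p under 0.01, 478 genes were higher, 579 lower and 5 neighbours called, against 1005, 1217 and 10. With the length trend removed, 13 related genes were lower, against 7. With levels per single-place length, 4 neighbouring pairs in the siNC order were apart, against 7. Leaving out single libraries gave 524 to 1115 genes higher and 581 to 1468 lower, 4 to 5 mucins higher and 0 lower, 9 to 13 related genes higher and 4 to 15 lower, and 4 to 12 neighbours called. Whether replicate numbers pair the libraries was not settled. Deviations of same-numbered libraries correlated at 0.0433, 0.0330 and -0.00941, and those of differently numbered libraries at -0.0478 to 0.0213. With the replicate block 1334 genes were higher and 1758 lower, and 18 neighbours were called. Apart from the stricter threshold itself, the causes of these changes were not tested. Leaving out siC1QBP replicate 1 gave more calls with fewer libraries, 1115 genes higher and 1468 lower. Of 118 alternative values of single members, 2 moved by at least the SD within groups (MUC16 and MUC5AC with the length trend removed). By that rule the lost calls of MUC5B and the changes of sign of MUC13 and MUC20 did not count. Other named genes were judged by their calls instead, and of 508 values 45 lost the call and 3 gained one. The counts for members and for other genes are therefore not comparable. Depth limited MUC3A and MUC12, which had at most 14 counts in a library.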
